A study of Drosophila melanogaster with 9 samples.

Results

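Nuclear-encoded genes of oxidative phosphorylation were described in RNA from Drosophila melanogaster ovaries. They were taken as the genes whose FlyBase symbol begins with ND-, UQCR- or ATPsyn, with COX and a digit from 4 to 8, or with Sdh and one of the letters A to D, which gave 87 of the 17559 genes in the count files. Complex I had 40 of them, complex II 7, complex III 9, complex IV 16 and complex V 15. By their symbols, 63 of the 87 genes were classed as ubiquitous subunits and 24 as duplicates of such a subunit, which carry an L after its name. The 3 groups, of 3 libraries each, were mutants of DPLG1, mutants of DPLG4 and w1118 controls. The labels describe all libraries as total RNA of ovaries and give neither the alleles, nor the age of the flies, nor how many flies a library holds. DPLG1 and DPLG4 are genes derived from a transposase, and the comparisons ask how ovary RNA changes when either gene is mutated.

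Oxidative phosphorylation takes place in the inner mitochondrial membrane. Complexes I and II pass electrons from NADH and succinate to ubiquinone, complex III passes them to cytochrome c, and complex IV passes them to oxygen, while complexes I, III and IV pump protons that drive ATP synthesis by complex V. Most subunits are encoded in the nucleus, and those of every complex but complex II are assembled with subunits encoded by the mitochondrial genome. The ovary is rich in mitochondria, since the oocyte stocks those the embryo will inherit. In Drosophila, many of these subunits have a second gene copy known for expression in the testis.

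The libraries held 18078883 (control 3) to 95751320 (DPLG4 mutant 3) gene counts, and ubiquitous subunit genes took 1.11% to 1.43% of them. Each targeted gene was low in its own mutant. CG12253, the DPLG1 gene, was counted 0, 0 and 1 times in its mutants and 943 to 6157 times in the other libraries. CG7492, the DPLG4 gene, had 77 to 147 counts in the DPLG4 mutant libraries, or 1.52 to 1.68 CPM (a count relative to the size of its library, scaled by TMM), against 71.3 to 167 CPM elsewhere. Control 1 stood apart: 70.7% of its total was not uniquely aligned, against 7.61% to 10.001% in the other libraries. Among markers, summed levels of 7 germline genes lay between 2533 and 2999 CPM in all libraries, of which osk made up 1378 to 1837 CPM. Within that sum, bam stood at 62.0 ± 3.55 CPM in DPLG1 mutants, 35.5 ± 4.50 in DPLG4 mutants and 35.8 ± 1.39 in controls. For piwi the values were 241 ± 15.3, 183 ± 9.14 and 182 ± 10.2 CPM, and for otu 445 ± 45.7, 475 ± 88.3 and 550 ± 42.8 CPM. Summed levels of 10 follicle cell genes were 544 to 970 CPM in controls, 821 to 1289 CPM in DPLG1 mutants and 1194 to 1542 CPM in DPLG4 mutants. In DPLG1 mutants that sum was carried by the chorion genes Cp36 (338 ± 20.9 CPM, controls 109 ± 47.6) and Cp19 (261 ± 124 CPM, controls 89.7 ± 25.7), while the means of Yp1, Yp2, Yp3 and Vm26Aa lay below those of controls, as for Yp1 at 95.6 ± 26.7 and 121 ± 60.1 CPM. The part of these differences in the results was not tested. In whole ovaries, fewer cells of a type and less RNA per cell cannot be told apart.

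All but 3 of the 63 ubiquitous genes passed the filter on low counts and were tested. Levels between genes were compared as CPM per kilobase of annotated exon. Subunits whose symbols fall outside the rule, such as RFeSP of complex III, are not in these medians, ranges and ranks. On that scale the median gene of complex V stood at 307 ± 37.6 in controls (SD, n = 3) and that of complex IV at 295 ± 50.9. The median was 138 ± 6.37 for complex III, 88.0 ± 9.69 for complex I and 67.8 ± 5.12 for complex II. The order ran from complexes V and IV, which differed by less than the spread between libraries, through complex III to complexes I and II. Within all tested members, the highest level (ATPsynC) was 104 times the lowest (ND-MWFE).

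The highest level per kilobase belonged to ATPsynC, the subunit that forms the membrane ring of ATP synthase, with 1359 ± 303 in controls, 1255 ± 31.3 in DPLG1 mutants and 1229 ± 160.0 in DPLG4 mutants. ATPsynbeta, the catalytic subunit of its soluble head, followed with 644 ± 33.4 in controls. The lowest of complex V was ATPsyndelta, a subunit of the central stalk, with 74.0 ± 6.56. This last value depends on the annotation, because 1358 of its 3817 exon bases also lie in another gene, and per kilobase of the remaining bases it was 115. In complex IV, which reduces oxygen, COX7B and COX5A led with 490.1 ± 80.1 and 361 ± 59.5 in controls, and COX7C was lowest with 164 ± 8.73. The whole range of complex IV was 2.95-fold, against 34.5-fold in complex I and 17.1-fold in complex V.

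Among the members of complex III, UQCR-Q and UQCR-6.4 stood at 166 ± 28.6 and 161 ± 45.8 CPM per kilobase in controls. UQCR-C2, one of the large core proteins, was the lowest member at 82.9 ± 28.4. The value of UQCR-6.4 depends on the annotation, since 227 of its 561 exon bases also lie in POSH, and per kilobase of the remaining bases it was 271, above UQCR-Q at 169. In complex II the membrane anchor subunits SdhD and SdhC stood at 91.4 ± 6.41 and 75.2 ± 6.46, above the iron-sulphur subunit SdhB (60.4 ± 16.5) and the flavoprotein SdhA (51.2 ± 9.23). In complex I, ND-MLRQ and the acyl carrier subunit ND-ACP were highest, with 423 ± 154 and 309 ± 37.5. The accessory subunit ND-MWFE was lowest of the tested genes of complex I, with 10.2 ± 0.492 in controls. A stretch of 295 of its 844 exon bases is shared with other genes, and on its own bases it stood at 15.7.

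**Figure D1:**
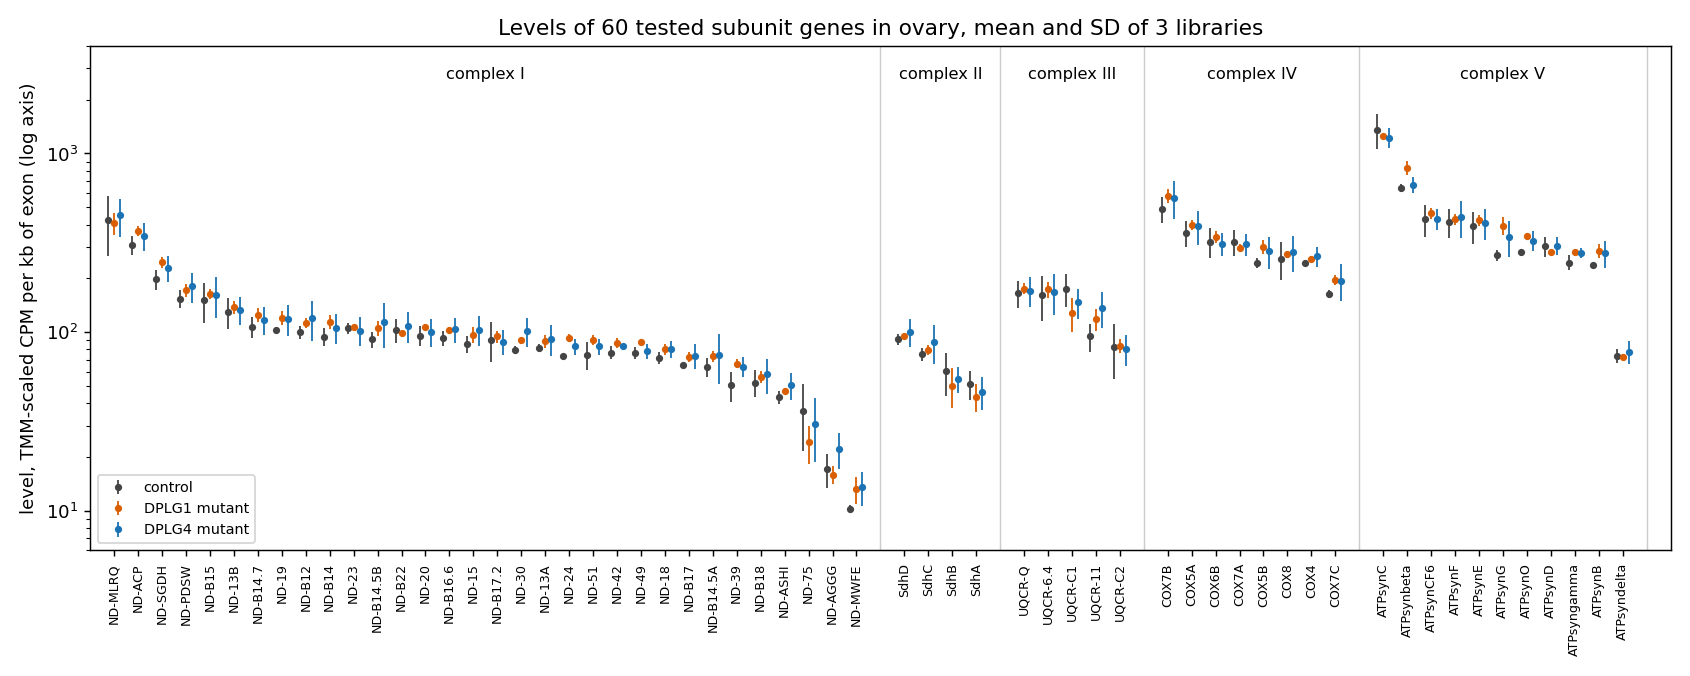
Level of each of the 60 tested ubiquitous subunit genes in TMM-scaled CPM per kilobase of exon on a log axis, grouped by complex, with points for the mean and bars for the SD of the 3 libraries of a group. ATPsynC stands highest at 1359 in controls and ND-MWFE lowest at 10.2, and the 3 groups lie close together for most genes.

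The 3 untested ubiquitous genes were UQCR-14 and ND-MNLL, with 0 counts in all 9 libraries, and ND-B8, with 0 to 5 counts per library. Every exon base of UQCR-14 (523 bases) also lies in CG32576 on the opposite strand, and every one of ND-MNLL (720 bases) in CG45089 on the same strand. Among all protein-coding genes of the files, 64 of 69 that were covered in full on the opposite strand only had 0 counts in every library, or 92.8%, and so had 281 of 296 covered in full on the same strand, or 94.9%. The share was 17.4% for genes whose exons overlap no other gene. A count of 0 for UQCR-14 or ND-MNLL therefore gives no reading of their transcripts. ND-B8 shares 71 of its 460 exon bases with another gene. Its mean level over the groups, 0.069 CPM per kilobase, lay below those of the duplicates COX7CL (0.254) and ATPsynepsilonL (0.241). It is classed as ubiquitous by its symbol only.

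The duplicated copies were at or near 0 in the ovary. All 24 together had 268 counts over the 9 libraries, against 6744566 for the ubiquitous genes, and none passed the filter. Of these copies, 8 had no count in any library (ND-20L, ND-B14.5AL, SdhCL, UQCR-14L, UQCR-6.4L, COX5BL, COX6AL and ATPsynGL) and 5 had 1 to 3 counts over all libraries (ND-24L, SdhAL, COX6AL2, COX6CL and ATPsynCF6L). The exons of COX5BL are wholly covered by another gene, so it gives no reading, and those of COX6AL2, with 1 count, are covered to 67.0%. UQCR-14L has no partner level to be set against. For ND-20L, ND-B14.5AL, SdhCL, UQCR-6.4L, COX6AL and ATPsynGL, the limit that 3 counts over all libraries set lay between 0.00582 (SdhCL) and 0.0133 (UQCR-6.4L) CPM per kilobase. Set against that limit, pooled levels of the partners were at least 14067-fold higher for SdhC, at least 12541-fold higher for UQCR-6.4 and at least 33108-fold higher for ATPsynG. Intervals and limits cover counting error only.

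Most of the counts of the duplicates, 230 of 268, came from 5 genes. COX7CL, a copy of the complex IV subunit COX7C, had 60 counts (95% exact Poisson interval 45.8 to 77.2), and its level per kilobase was 675 times below that of COX7C. ATPsynepsilonL, a copy of the epsilon subunit of ATP synthase that the gene sun encodes, had 62 counts (47.5 to 79.5), with sun 1779.6 times higher. COX7AL2 had 56 counts (42.3 to 72.7) and COX4L 39 (27.7 to 53.3), and their partners COX7A and COX4 stood 2681 and 2528 times higher. COX7AL had 13 counts (6.92 to 22.2), with COX7A 7190.3 times higher. These copies had counts in 6 to 9 of the 9 libraries and at most 14 in any one. The remaining copies with more than 3 counts were ND-51L2 with 9, SdhBL and UQCR-11L with 6 each, and ND-49L, ND-51L1 and ATPsynbetaL with 4 each, against 914280 counts for ATPsynbeta.

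By group, COX7CL had 23 counts in DPLG1 mutants, 27 in DPLG4 mutants and 10 in controls, and ATPsynepsilonL had 19, 30 and 13. The groups also differ in depth, and no comparison between groups was made at these counts. Markers of the testis summed to 11.6 to 14.8 CPM per library, with 8 of 20 at 0 in all libraries and 4 with 10 or more counts. Nearly all of that sum came from bol (8.72 to 12.5 CPM) and mia (1.81 to 3.39 CPM), and the other 18 were at most 0.259 CPM each. Whether reads of a partner were counted for a copy was not tested.

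**Figure D2:**
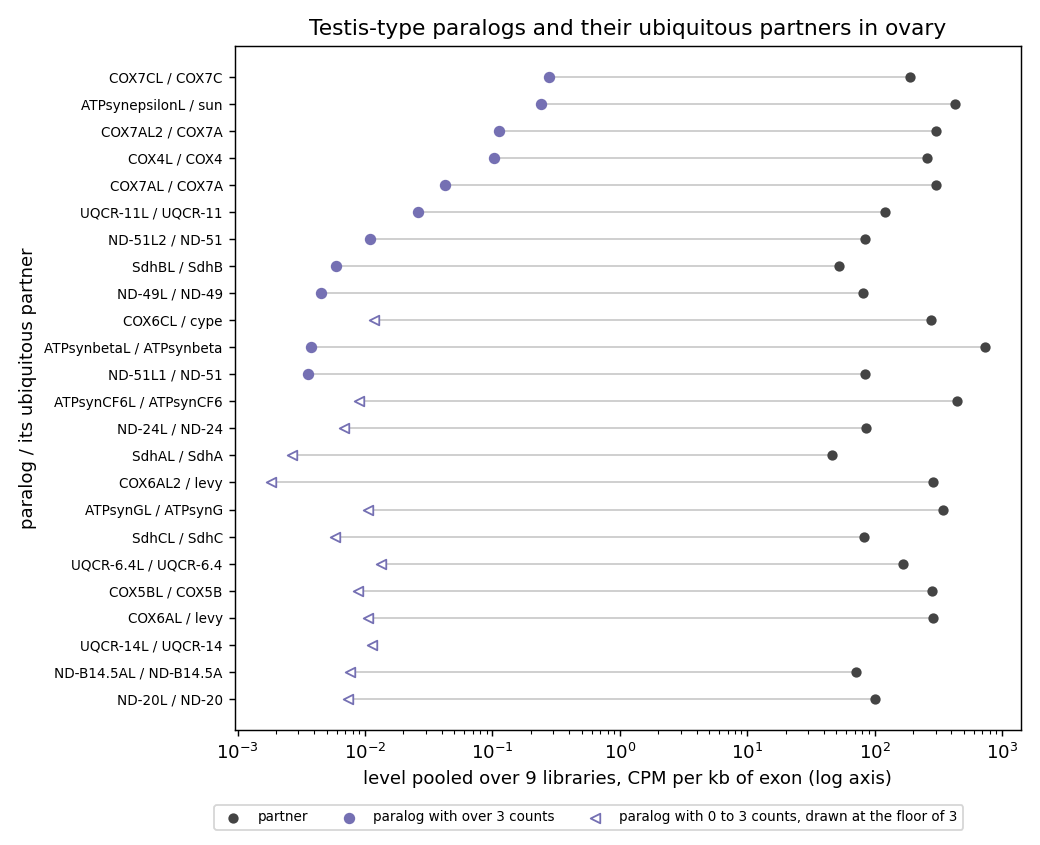
Level of each duplicated copy and of its ubiquitous partner pooled over the 9 libraries, in CPM per kilobase of exon on a log axis, with copies of 0 to 3 counts drawn as open triangles at the limit set by 3 counts. Among copies with 10 or more counts, COX7CL, at 675 times below COX7C, is the nearest to its partner, and for UQCR-14L, whose partner also has 0 counts, the pair gives no comparison.

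Set against controls, no subunit gene was called in DPLG1 mutants by the edgeR quasi-likelihood test at an adjusted p under 0.05. The adjustment ran over all 8427 tested genes, of which 0.107% were called. The smallest adjusted p among the 60 tested members was 0.269. The median log2 fold change of the members was 0.15, with 49 of 60 positive, and over all tested genes it was 0.01. With an unadjusted p under 0.05, 5 members lay higher and 0 lower, against 7.13% and 9.85% of all genes. The groups did not overlap for 16 members, which were higher in all mutant libraries, and for 0 members in the other direction, against 15.8% and 13.9% of all genes. DESeq2 called 2 members, ND-24 (adjusted p = 0.0310) and ATPsynbeta (adjusted p = 0.0490), where it called 2.74% of all genes with an adjusted p. The median of the members was 0.0958 without DPLG1 mutant 22 and 0.272 without control 1.

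ND-24 (X, 17632089 to 17633509, build BDGP6) encodes a core subunit of the part of complex I that takes electrons from NADH. It stood at 77.8, 79.2 and 76.4 CPM in controls 1, 2 and 3, at 105, 97.2 and 95.6 CPM in DPLG1 mutants 22, 5 and 7, and at 95.2, 92.0 and 78.1 CPM in DPLG4 mutants 15, 3 and 7. All 3 DPLG1 mutant libraries lay above the controls and above the DPLG4 mutants, and the controls were close together. The log2 fold change against control was 0.35 (SE 0.10, edgeR adjusted p = 0.269) in DPLG1 mutants and 0.19 (SE 0.10, edgeR adjusted p = 0.549) in DPLG4 mutants.

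ATPsynbeta (chromosome 4, 1031484 to 1034917) had 1513, 1624 and 1469.8 CPM in controls. In DPLG1 mutants 22, 5 and 7 it had 2179, 1833 and 1942 CPM, and in DPLG4 mutants 15, 3 and 7 it had 1754, 1612 and 1423 CPM. The DPLG1 mutants lay above every other library, and the DPLG4 mutants overlapped the controls. The log2 fold change was 0.37 in DPLG1 mutants (SE 0.11, edgeR adjusted p = 0.269) and 0.06 in DPLG4 mutants (SE 0.11, edgeR adjusted p = 0.826). Chromosome 4 holds 1 other tested member, ND-49, a core subunit of complex I, at 0.20 in DPLG1 mutants (SE 0.10, edgeR adjusted p = 0.337). The 77 tested genes of this chromosome had a median of 0.20 in DPLG1 mutants and 0.04 in DPLG4 mutants. The part of the chromosome in the value of ATPsynbeta was not tested.

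ATPsynG, a subunit of the membrane part of ATP synthase, had the largest positive value in DPLG1 mutants. It stood at 223, 221 and 195 CPM in controls, at 349.7, 278 and 305 CPM in DPLG1 mutants 22, 5 and 7, and at 336, 258 and 215 CPM in DPLG4 mutants 15, 3 and 7. Every DPLG1 mutant library lay above the controls, while DPLG4 mutant 7 lay among them. Its log2 fold change was 0.55 in DPLG1 mutants (SE 0.16, edgeR adjusted p = 0.276) and 0.34 in DPLG4 mutants (SE 0.16, edgeR adjusted p = 0.506). ATPsynG (2L, 10975522 to 10976399) lies 11407 bases from the DPLG1 gene, and the next tested member on the arm, ND-B22, lies 2380862 bases away. The 12 tested genes within 100000 bases of DPLG1, without DPLG1 itself, had a median of 0.18, with 9 positive and 0 called. What the neighbourhood adds to the value of ATPsynG was not tested.

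ATPsynO, which encodes a subunit of the stalk that holds the head of the enzyme in place, stood at 217, 236 and 222 CPM in controls and at 291, 269 and 266 CPM in DPLG1 mutants, with no overlap. In DPLG4 mutants 15, 3 and 7 it had 297, 254 and 232 CPM. Its log2 fold changes were 0.29 (SE 0.11, edgeR adjusted p = 0.276) and 0.21 (SE 0.11, edgeR adjusted p = 0.517). The fifth member under an unadjusted p of 0.05 was ND-39, an accessory subunit of complex I, with 0.40 (SE 0.16, edgeR adjusted p = 0.277). Its controls stood at 63.7, 89.8 and 91.0 CPM and its DPLG1 mutants at 101, 112 and 111 CPM, and control 1 was the lowest library.

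In DPLG4 mutants no member was called either (smallest edgeR adjusted p = 0.412), where 0.427% of all tested genes were. The members' median log2 fold change was 0.15, with 50 of 60 positive, and over all tested genes it was -0.01. Unadjusted p values under 0.05 were found for 2 members on the higher side and 0 on the lower side, against 7.32% and 3.45% of all genes. The groups did not overlap for 4 members on the higher side and 0 on the lower side, against 9.48% and 6.79% of all genes. DESeq2 called 0 members and 2.19% of all genes. Without DPLG4 mutant 15, the median of the members was -0.00 and 30 of 60 were positive, so the direction rests on that library. Without DPLG4 mutant 7 the median was 0.246, with 54 of 60 positive, and without control 1 it was 0.232, with 55 positive.

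UQCR-11, a small subunit of complex III (3L, 25120709 to 25126171), had the smallest p in DPLG4 mutants. It had 121, 169.6 and 168 CPM in controls 1, 2 and 3, and 277, 202 and 182 CPM in DPLG4 mutants 15, 3 and 7. The groups did not overlap, with control 1 the lowest and DPLG4 mutant 15 the highest library. Its log2 fold change was 0.53 (SE 0.20, edgeR adjusted p = 0.412), and in DPLG1 mutants, at 207, 159.9 and 203 CPM, it was 0.32 (SE 0.20, edgeR adjusted p = 0.381).

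ND-30, a core subunit of the arm of complex I that reduces ubiquinone, had 73.4, 81.0 and 78.3 CPM in controls and 119, 93.6 and 83.999 CPM in DPLG4 mutants. All of the mutant libraries lay above the controls, by a log2 fold change of 0.35 (SE 0.13, edgeR adjusted p = 0.416). For ND-39 it was also 0.35 (SE 0.16, edgeR adjusted p = 0.467), with 91.6, 118 and 101 CPM in the mutants. ND-MWFE, with 8.44, 9.11 and 8.36 CPM in controls and 14.2, 10.4 and 9.74 CPM in DPLG4 mutants, had 0.40 (SE 0.18, edgeR adjusted p = 0.479). For each of these 4 genes the DPLG4 mutants stayed clear of the controls, for ND-39 by less than 1 CPM.

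**Figure D3:**
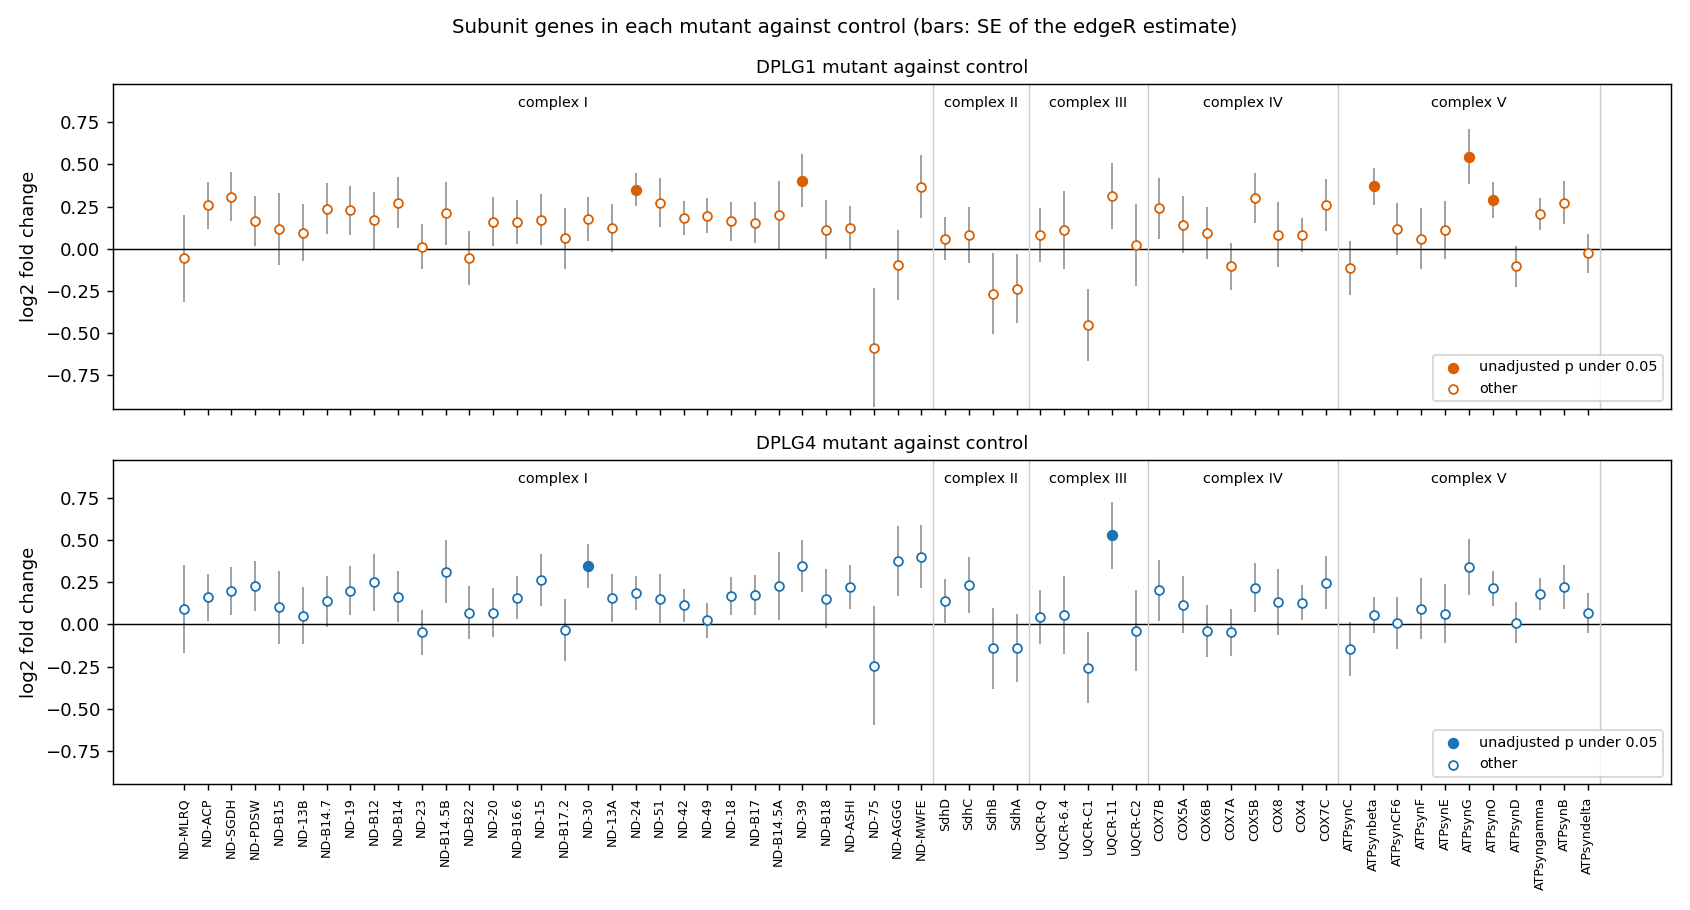
Log2 fold change of each of the 60 tested subunit genes against control in DPLG1 mutants (top) and DPLG4 mutants (bottom), ordered by complex and level, with bars for the SE and filled points for an unadjusted p under 0.05. Filled points number 5 in the top and 2 in the bottom panel, and 49 and 50 of the 60 genes lie above 0.

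The mutants share their controls, so their values against control are given side by side by complex. The median log2 fold change of complex I was 0.17 in DPLG1 mutants (28 of 32 positive) and 0.16 in DPLG4 mutants (29 of 32). For complex IV it was 0.12 (7 of 8) and 0.13 (6 of 8), and for complex V 0.12 (8 of 11) and 0.07 (10 of 11). Complex III had 0.08 (4 of 5) and 0.04 (3 of 5). Complex II, with 2 of 4 positive in each mutant, had -0.09 and 0.00. In complex II the anchors SdhC and SdhD were positive in both mutants, and the catalytic subunits SdhA and SdhB were negative in both, at -0.24 and -0.27 in DPLG1 mutants (edgeR adjusted p = 0.514 and 0.533) and at -0.14 and -0.14 in DPLG4 mutants (edgeR adjusted p = 0.766 and 0.801). These counts by complex changed in a fit that takes gene length into account, and the part of length in them was not tested. With the trend of level with exon length removed, 0 of 4 genes of complex II were positive in DPLG1 mutants and 2 of 4 in DPLG4 mutants, so the anchors turned negative in DPLG1 mutants. Positive genes then numbered 23 and 21 of 32 in complex I, 2 and 1 of 5 in complex III, 4 and 3 of 8 in complex IV, and 6 of 11 in complex V in each mutant.

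Between the mutants no member was called (smallest edgeR adjusted p = 0.440), where 0.629% of all genes were, and DESeq2 called 0 members and 1.96% of all genes. The members' median was 0.01, with 31 of 60 positive, and over all tested genes it was -0.03. With an unadjusted p under 0.05, 1 member was higher in DPLG1 mutants and 1 lower, against 3.65% and 3.89% of all genes. The groups did not overlap for 2 higher and 1 lower, against 9.04% and 6.46% of all genes. The 2 higher ones were ATPsynbeta, at 0.31 (SE 0.11, edgeR adjusted p = 0.440), and ND-24, at 0.17 (SE 0.10, edgeR adjusted p = 0.807). ND-49 followed with 0.17 (SE 0.10, edgeR adjusted p = 0.809). The lower one was ND-AGGG, an accessory subunit of complex I, with 12.5, 10.3 and 12.7 CPM in DPLG1 mutants 22, 5 and 7 and 20.8, 14.9 and 13.7 CPM in DPLG4 mutants 15, 3 and 7, a difference of -0.47 (SE 0.21, edgeR adjusted p = 0.657). Its controls, at 9.59, 13.6 and 14.9 CPM, overlapped both mutants. The median of the members between the mutants was -0.0763 without DPLG4 mutant 7 and 0.15 without DPLG4 mutant 15.

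Libraries of 1 group differed among themselves as much as the groups did. Relative to each gene's mean over the 9 libraries, the median log2 difference of the 60 members was 0.15, 0.02 and 0.01 in DPLG1 mutants 22, 5 and 7, and 0.30, -0.03 and -0.17 in DPLG4 mutants 15, 3 and 7. In controls 1, 2 and 3 it was 0.03, -0.13 and -0.20. DPLG4 mutant 15 was the highest library for 40 of the 60 genes, and control 3 was the lowest for 30. Complexes I, III, IV and V each had their highest median in DPLG4 mutant 15, at 0.31, 0.29, 0.36 and 0.23, whereas complex II had its highest in control 3, at 0.12. Hemocyte markers summed to 24.7 CPM in DPLG4 mutant 15 and to 8.45 to 12.3 CPM in the other libraries. The collagen gene vkg made up 21.6 CPM of that sum, and the other 5 markers were at most 1.91 CPM each in that library, with NimC1 at 0. The follicle cell gene tj stood at 18.9 CPM in DPLG4 mutant 15 and at 3.49 to 7.92 CPM elsewhere. The sum of the 10 follicle cell genes did not set that library apart, at 1539 CPM there and 1542 CPM in DPLG4 mutant 3. Fas3 was also highest in DPLG4 mutant 15, at 7.64 CPM, but Cp19 stood at 188 CPM there and at 426 CPM in DPLG4 mutant 3. Muscle markers summed to 72.8 to 113 CPM. Gut markers summed to 45.3 CPM in DPLG1 mutant 7, 30.5 CPM in DPLG4 mutant 3, 8.88 CPM in DPLG4 mutant 15 and at most 0.402 CPM elsewhere. The part of these cells in the levels of the members was not tested.

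A few members ran the other way. Of the 60 genes, 6 were higher in control 3 than in DPLG4 mutant 15, a contrast chosen after the values were seen. They were ND-75 and ND-51 of complex I, SdhA and SdhB of complex II, and UQCR-C1 and UQCR-C2 of complex III. Other core subunits of complex I did not share this, as for ND-30 with 78.3 CPM in control 3 and 119 CPM in DPLG4 mutant 15. ND-75, the largest core subunit of complex I, had 61.2, 88.7 and 137 CPM in controls, 46.1, 73.03 and 71.8 CPM in DPLG1 mutants 22, 5 and 7, and 54.1, 72.4 and 116 CPM in DPLG4 mutants 15, 3 and 7. Its log2 fold change in DPLG1 mutants, -0.59, was the most negative of the members, but the groups overlapped widely (SE 0.35, edgeR adjusted p = 0.370). UQCR-C1, a core protein of complex III, had 236, 271 and 351 CPM in controls, 161, 248 and 216 CPM in DPLG1 mutants and 194, 238 and 286 CPM in DPLG4 mutants. Controls 2 and 3 were above most mutant libraries, and its log2 fold change in DPLG1 mutants was -0.45 (SE 0.21, edgeR adjusted p = 0.302).

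**Figure D4:**
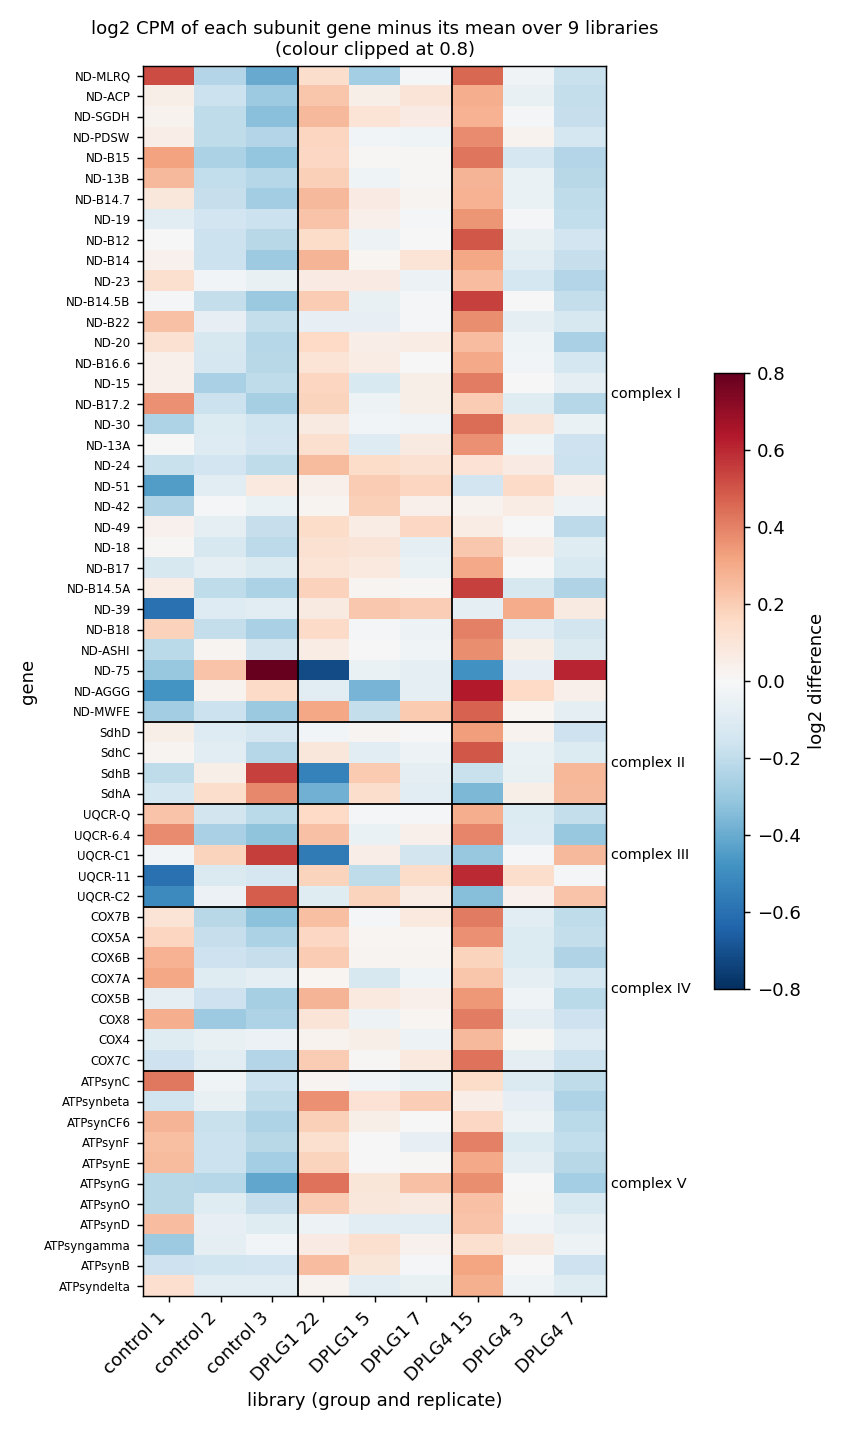
Log2 CPM of each of the 60 tested subunit genes (vertical axis, by complex) minus its mean over the 9 libraries (horizontal axis, by group and replicate), with red for higher and blue for lower. The column of DPLG4 mutant 15 is red for most genes and that of control 3 blue, while ND-75, SdhA, SdhB, UQCR-C1 and UQCR-C2 show the opposite colours in these 2 libraries.

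The members are short genes, with a median of 879.5 exon bases against 2056.5 over the 8248 tested genes with an annotation. When all tested genes were put into 5 classes of exon length of equal size, 40 of the 60 members fell in the shortest. Genes of that class had a median log2 fold change of 0.14 in DPLG1 mutants and 0.16 in DPLG4 mutants, and its members 0.15 and 0.16. In the next class, which held 15 members, all genes had 0.11 and 0.08, and its members lay higher at 0.16 and 0.15. The third class, with 2 members, had 0.02 and -0.02, and its members 0.13 and -0.04. In the fourth, with 3 members, all genes had -0.11 and -0.10, and its members -0.24 and -0.14. The class of the longest genes, which held 0 members, had -0.34 and -0.21. Library by library, the median difference of the shortest genes from the mean was 0.14, -0.05 and 0.03 in DPLG1 mutants 22, 5 and 7, 0.27, -0.00 and -0.14 in DPLG4 mutants 15, 3 and 7, and 0.09, -0.16 and -0.22 in the controls. The members lay on the same side of 0 in all libraries but DPLG1 mutant 5. With each library's trend of level with exon length removed, the median of the members was 0.02 in both mutants, with 35 and 33 of 60 positive, and 0 members were called.

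**Figure D5:**
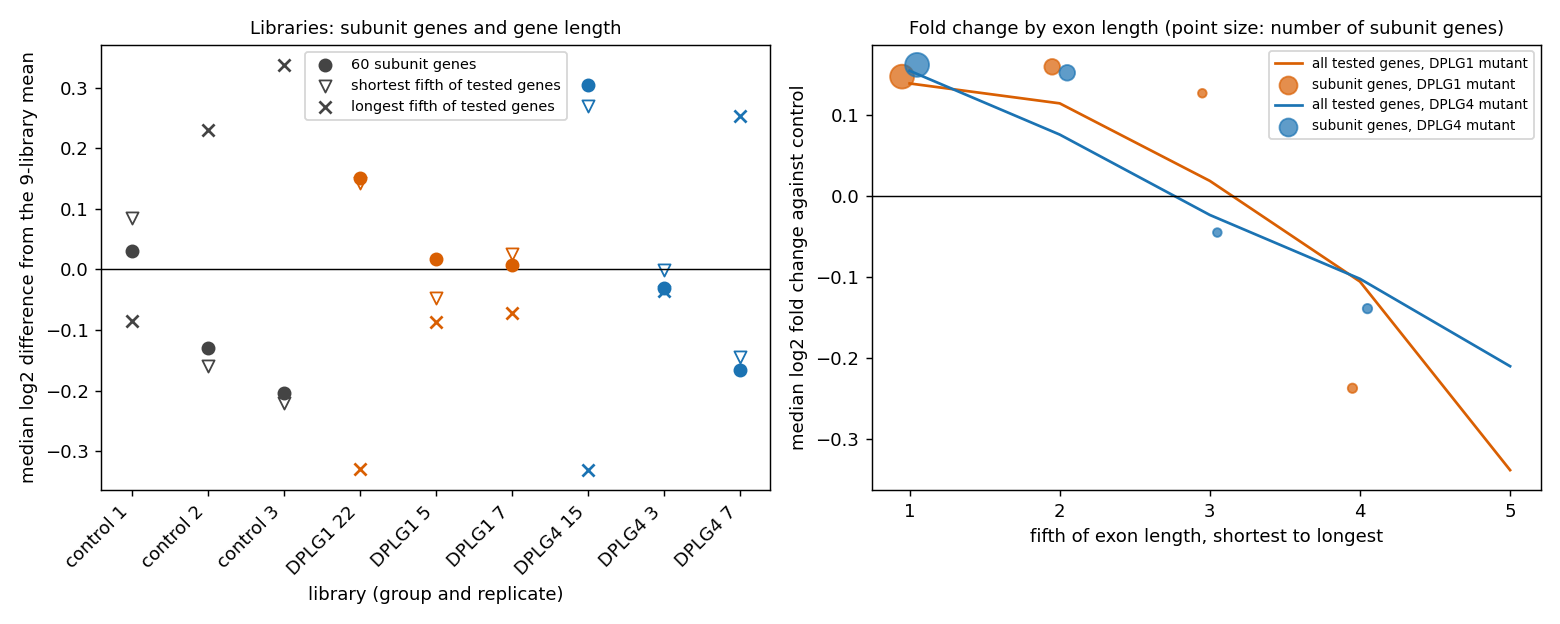
Left, median log2 difference from the 9-library mean in each library for the 60 subunit genes and for the shortest and longest of 5 length classes of all tested genes. Right, median log2 fold change against control by length class, with lines for all tested genes and points for the subunit genes in a class. The subunit genes lie near the shortest class, though on the other side of 0 in DPLG1 mutant 5, and both reach their highest value in DPLG4 mutant 15, at 0.30 and 0.27.

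By chromosome arm, 11 tested members on 2L had medians of 0.16 in DPLG1 and 0.18 in DPLG4 mutants, 11 on 2R had 0.17 and 0.14, and 13 on 3L had 0.18 and 0.20. The 13 on 3R had 0.08 and 0.07, and the 10 on X had 0.14 and 0.16. Over all tested genes the medians were 0.04 and 0.01 on 2L, 0.03 and 0.01 on 2R, and 0.02 and -0.02 on 3L. They were 0.02 and -0.01 on 3R and -0.10 and -0.04 on X.

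Other genes of the pathway were counted over lists, and none of their members was called in any comparison. Genes listed as subunits whose symbols carry no complex name numbered 8, all tested, with medians of 0.02 in DPLG1 and 0.05 in DPLG4 mutants and 5 and 4 positive. These values include CG34423, at 1.07 ± 0.292 CPM in controls, whereas the other listed genes stood at 79.8 CPM (ox) or more. Among them RFeSP, the Rieske iron-sulphur protein of complex III, stood at 172 ± 11.6 CPM in controls, 215 ± 12.2 in DPLG1 mutants and 197 ± 21.3 in DPLG4 mutants (edgeR adjusted p = 0.276 and 0.558). Of 6 tested carriers and related genes, 4 were positive in DPLG1 mutants and 6 in DPLG4 mutants, with medians of 0.10 and 0.13. Ant2, an ADP/ATP carrier, had the smallest p of these and stood at 0.873 ± 0.116 CPM in controls, 1.19 ± 0.0261 in DPLG1 mutants and 1.34 ± 0.0659 in DPLG4 mutants.

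Subunits encoded by the mitochondrial genome had the largest list medians. Of 13 in the files, 12 were tested, and their medians were 0.51 (12 positive) in DPLG1 mutants and 0.56 (11 positive) in DPLG4 mutants, with 2 and 4 on the higher side at an unadjusted p under 0.05, against 7.13% and 7.32% of all genes, and 0 called. Their summed level was 7409 CPM in control 1 and 18109 and 18804 CPM in controls 2 and 3, against 19798 to 26457 CPM in DPLG1 mutants and 18289 to 25467 CPM in DPLG4 mutants. Control 1 was by far the lowest library, and without it, a check added after the values were seen, the medians were 0.26 and 0.24. The complex IV subunit mt:CoIII stood at 3835 ± 1252 CPM in controls, 6401 ± 924 in DPLG1 mutants and 6179 ± 997 in DPLG4 mutants (edgeR adjusted p = 0.276 and 0.396). The complex I subunit mt:ND2 stood at 7.19 ± 0.282, 11.2 ± 2.20 and 16.2 ± 7.62 CPM (edgeR adjusted p = 0.307 and 0.231).

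For 12 tested assembly factors, which put the complexes together, the medians were 0.02 and 0.03, with 6 positive in each mutant. Surf1, a factor for complex IV, stood at 27.4 ± 3.16 CPM in controls and 32.5 ± 0.260 in DPLG1 mutants (edgeR adjusted p = 0.299), and the ferredoxin gene Fdx2 at 107 ± 14.5 CPM in controls and 138 ± 24.1 in DPLG4 mutants (edgeR adjusted p = 0.423). The 14 genes of the citric acid cycle and its entry had medians of -0.01 and -0.13, with 7 and 4 positive, and at an unadjusted p under 0.05 there were 2 higher and 4 lower in DPLG1 mutants and 1 higher and 3 lower in DPLG4 mutants, against 7.13% and 9.85% of all genes in the former and 7.32% and 3.45% in the latter. Pdk, the kinase that switches off pyruvate dehydrogenase, stood at 146 ± 8.35 CPM in controls, 96.8 ± 10.1 in DPLG1 mutants and 108 ± 14.0 in DPLG4 mutants (edgeR adjusted p = 0.209 and 0.275). ScsbetaG, a beta subunit of succinyl-CoA synthetase, stood at 23.3 ± 0.495, 26.8 ± 0.673 and 29.5 ± 1.90 CPM (edgeR adjusted p = 0.294 and 0.231).

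Of 16 tested regulators of mitochondrial biogenesis, 3 were positive in each mutant, with medians of -0.12 and -0.18. Their exon lengths ran from 575 bases (mtSSB) to 9170 (Myc), with crol at 7421 and REPTOR at 7133. The class of the longest of all tested genes, from 4081 bases on, had medians of -0.34 and -0.21. The part of length in this list was not tested. Myc, a transcription factor that promotes growth, stood at 156 ± 9.21 CPM in controls, 110.1 ± 7.27 in DPLG1 mutants and 123 ± 17.9 in DPLG4 mutants (edgeR adjusted p = 0.240 and 0.396). CrebA, a transcription factor of secretory genes, stood at 5.13 ± 0.176, 4.14 ± 1.16 and 2.19 ± 0.418 CPM (edgeR adjusted p = 0.472 and 0.107). The 12 genes of glycolysis had medians of -0.06 and 0.10, with 6 and 7 positive. Gapdh2, a glycolytic dehydrogenase, stood at 1736 ± 68.2, 2168 ± 31.2 and 2062 ± 168 CPM (edgeR adjusted p = 0.265 and 0.396).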

How the data were processed

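RNA-seq counts of reads per gene, not normalized, were deposited by the authors for 9 ovary libraries. Per the submitters' processing notes, FastQC, STAR 2.5, HTSeq and DESeq2 were used, with the builds BDGP6 and GRCh37. Neither the strand setting nor the role of the human build is given in the sources used here. Groups came from the sample titles. The series calls the 3 libraries of a group biological replicates and gives no more on their source, so p-values measure the spread between these libraries.

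The Ensembl gene models of BDGP6 gave symbols for 17253 of the 17559 identifiers, positions and exon lengths. Any count was seen for 13404 genes, and 8427 passed filterByExpr with the groups as given. Counts were scaled by TMM, and a quasi-likelihood model with group as its only term (robust dispersions, biological coefficient of variation 0.217) was fitted to all 9 libraries with edgeR 4.0.16 (R 4.3.3, limma 3.58.1). It was also run on counts simulated without a trend with exon length, so that run does not cover the length trend of these libraries. A gene was called when its p, adjusted by Benjamini-Hochberg, was under 0.05. CPM are TMM-scaled, and SE is the fold change over the square root of F. Summary lines stayed out of library sizes and made up 72.0% of control 1, against 11.5% to 13.8% elsewhere.

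The members and lists were chosen with earlier results of these data known. Genes named were the 4 members with the smallest p per comparison, the 2 highest and the lowest per complex, every duplicate with its partner, the gene of each list with the smallest p in each mutant (of up to 3 the rule allowed), and the targeted genes. ND-75, UQCR-C1 and the marker genes, and ND-39 in DPLG1 mutants, were named after their values were seen. Alternatives were other scalings and filters, DESeq2 1.42.0, a fit to 6 libraries, removal of the trend with exon length (lowess, span 0.3), members without exon overlap, other gene lengths and leaving out each library. Levels on exon bases free of other genes, and the checks of the mitochondrial genome list, were added after the data were seen.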

Additional observations from a re-analysis of the deposited data

How the results depend on the processing

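The count of members called was 0 in each comparison under every alternative run, except that DESeq2 called 2 in DPLG1 mutants against control (ND-24 and ATPsynbeta), where over all genes it called 224 of 8167 with an adjusted p, against 9 of 8427 with edgeR. In the other comparisons DESeq2 called 213 of 9724 and 206 of 10503 genes, against 36 and 53 with edgeR. The median log2 fold change of the members in DPLG1 mutants was 0.2872 with upper quartile scaling, which moved the median of all genes to 0.15, and 0.0246 with the length trend removed. Leaving out each library in turn, it ranged from 0.0958 (without DPLG1 mutant 22) to 0.272 (without control 1). In DPLG4 mutants the same range was -0.000803 (without DPLG4 mutant 15) to 0.246 (without DPLG4 mutant 7), and between the mutants -0.0763 (without DPLG4 mutant 7) to 0.15 (without DPLG4 mutant 15). The cause was not tested. The median level per kilobase in controls was 102.9, and 113.1 per kilobase of the longest transcript. The 4 members with the smallest p in each comparison kept their sign in all 16 alternatives, and the adjusted p ranged from 0.0310 to 0.688 for ND-24, 0.0490 to 0.688 for ATPsynbeta and 0.0652 to 0.688 for ATPsynG in DPLG1 mutants. Low counts limit the duplicated copies and ND-B8, and exon overlap limits UQCR-14, ND-MNLL and COX5BL. No paired analysis was made because the labels state no pairing between libraries of different groups.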
